A study of Rattus norvegicus with 3 samples.

Results

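The angiotensin and apelin system was described across the 3 major salivary glands of the rat through 8 genes: Agt, Ace, Agtr1a, Agtr1b, Agtr2, Mas1, Apln and Agtrl1. They were taken by the gene name printed for each array probe, with a search of the probe descriptions for the apelin receptor. All 8 were found, on 11 probes, among 16714 named genes and 40999 probes. The gene names of the array are old: the RefSeq table calls Agtrl1 Aplnr, and that symbol is used from here on.

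Total RNA of the parotid, submandibular and sublingual glands of normal male Wistar rats, 10 weeks of age, was labelled with Cy3, and each gland was measured on 1 Agilent oligonucleotide array. The study used 3 rats, but the labels do not say whether an array holds RNA of 1 rat or of a pool. With 1 array per gland and no replicate, no test was possible, and precision is limited by that number. The file headers place all 3 arrays on 1 slide read in 1 scan, so a gland's values and those of its place on the slide cannot be told apart.

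Angiotensinogen is cut by a protease to angiotensin I, and angiotensin-converting enzyme trims that to angiotensin II, which raises blood pressure and salt retention through its receptors. Angiotensinogen in plasma comes mainly from the liver, while many tissues hold parts of the system of their own. Apelin is a separate peptide whose receptor is related in sequence to the angiotensin receptors but does not bind angiotensin, and in many tissues this receptor is known from endothelial cells.

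Levels are log2 processed signals minus the 75th percentile of the array, so a level of 0 lies at that percentile. A probe counts as well above background where the scanner software marked most of its usable spots so. That held for 64.1%, 62.3% and 63.4% of genes in the parotid, submandibular-labelled and sublingual samples; 0 spots were saturated. Over the 9766 genes that passed on all arrays, levels correlated across genes with r = 0.920 between parotid and submandibular-labelled, 0.919 between parotid and sublingual, and 0.991 between submandibular-labelled and sublingual. All 7 serous acinar markers were higher on the parotid array than on both others, with median log2 differences of 9.88 and 9.33. All 7 mucous acinar markers were lower in the parotid than in the submandibular-labelled sample, as were all 6 compared with the sublingual sample. Between submandibular-labelled and sublingual their median log2 difference was 0.09, with 4 higher and 3 lower, and 1 (Tff3) was at least 4-fold higher in the submandibular-labelled sample. None of 7 granular convoluted duct markers, whose products are known from the submandibular gland, reached 4-fold above either other array there, so that array is named here by its label only. In bulk RNA, fewer cells of a type and less RNA per cell cannot be told apart.

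The RefSeq promoter table (build GRCr8) held the start of 6 of the 8 genes, among them Apln and Ace, whose differences are described below; Agt and Aplnr had no entry. The 250 bases before each start are shown 5′ to 3′ on the gene's strand. Capitals mark matches to 4 short motifs, searched on both strands; matches may overlap. The TATA box was spelled TATAAA. The GC box was spelled GGGCGG. The CCAAT box was searched by those letters. The E-box was spelled CANNTG, where N is any base. Neither the forkhead core, spelled TGTTTA, nor the GATA core, spelled AGATAA, occurs in the windows shown.
Apln upstream window, chrX:132091247-132091496, minus strand: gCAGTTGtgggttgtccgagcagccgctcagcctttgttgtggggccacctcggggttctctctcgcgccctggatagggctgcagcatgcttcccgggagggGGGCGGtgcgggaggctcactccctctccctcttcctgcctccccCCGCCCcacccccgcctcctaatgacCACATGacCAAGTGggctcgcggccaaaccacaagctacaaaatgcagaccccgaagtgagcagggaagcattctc
Ace upstream window, chr10:91409879-91410128, plus strand: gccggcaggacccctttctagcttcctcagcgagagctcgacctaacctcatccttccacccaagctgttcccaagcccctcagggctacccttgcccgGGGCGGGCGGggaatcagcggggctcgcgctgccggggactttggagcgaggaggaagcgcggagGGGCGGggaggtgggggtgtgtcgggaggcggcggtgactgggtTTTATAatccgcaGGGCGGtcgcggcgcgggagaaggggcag
The Apln window held 3 E-boxes, 2 GC boxes and no TATA box, and the Ace window held 1 TATA box, starting 42 bases before the start, 4 GC boxes and no E-box. Of 33469 promoters of the same length, 65.5% held the E-box letters, 30.5% the GC box, 34.0% the CCAAT box, 12.9% the TATA box, 12.1% the forkhead core and 10.3% the GATA core. The windows of Apln and Ace were 64.8% and 69.2% G or C, against a median of 51.2% over all promoters. A match describes the letters only, and nothing in the array values was tested against it.

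The substrate and the apelin receptor stood far above their levels in the other glands on the parotid array, while converting enzyme differed by less than 4-fold. Of the 5 members well above background, 2 (Agt and Aplnr) exceeded 4-fold in favour of the parotid over the submandibular-labelled sample, beside 2.82% of 11222 genes. Apln was the 1 member lower by 4-fold or more in the parotid than in the submandibular-labelled sample, beside 2.88% of genes. Against the sublingual sample the same 2 members were 4-fold or more higher in the parotid, beside 2.85% of 11236 genes, and no member was lower by as much, beside 3.03%. Between the submandibular-labelled and sublingual arrays no member reached 4-fold in either direction, where 0.0742% and 0.139% of 10782 genes did. The median log2 difference of the 5 members was 0.34, 1.39 and 0.41 for parotid minus submandibular-labelled, parotid minus sublingual and submandibular-labelled minus sublingual, beside -0.09, -0.06 and 0.04 over all genes compared. The first of these medians depends on the Agtr1a probe. The brighter probe, used here, differed by -0.51 between parotid and submandibular-labelled, and the other by 1.04. The comparisons with the parotid share its array and are not independent of each other. With so few members, and with no replicate, these counts describe 3 arrays.

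**Figure D1:**
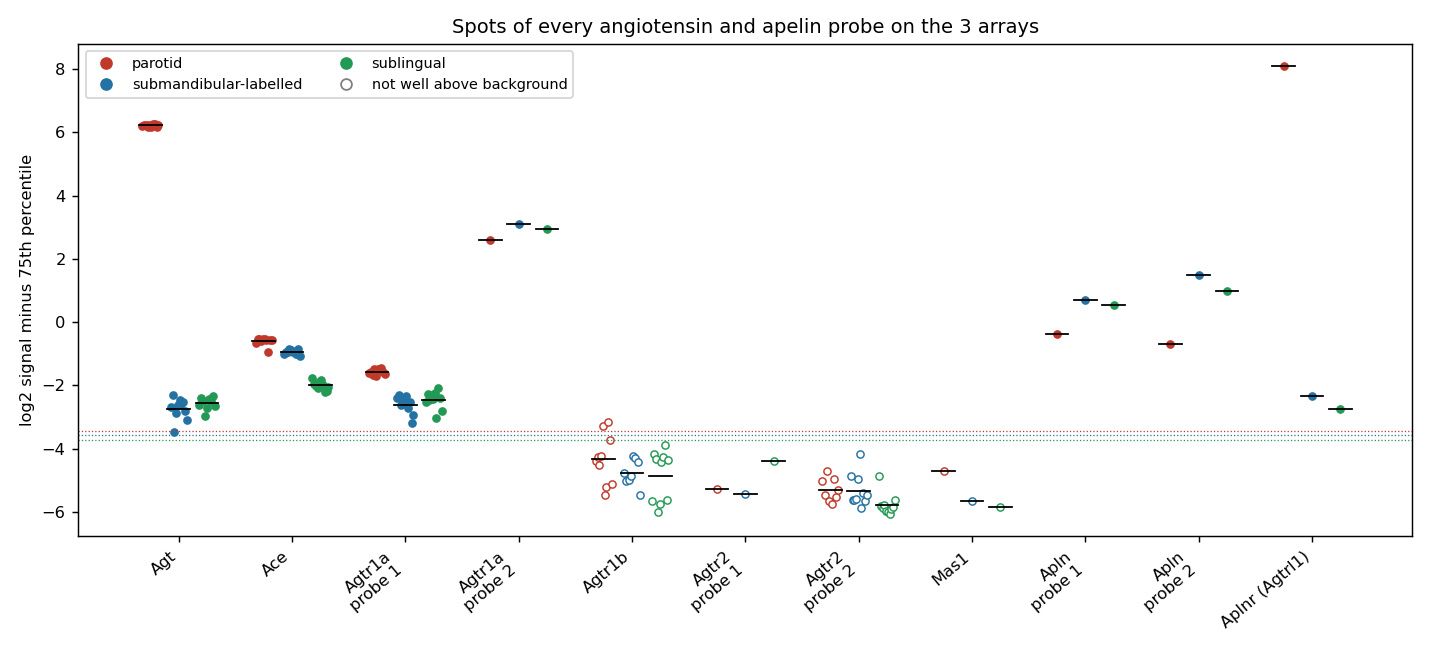
Every usable spot of the 11 probes, as log2 signal minus the 75th percentile of its array; black bars are means, dotted lines the lowest level well above background on each array (-3.43, -3.58 and -3.74), and open points are probes not well above background. Arrays may be compared within a probe, not probes with each other: Agt and Aplnr stand apart on the parotid array, and the 2 Agtr1a probes order the arrays in opposite ways.

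Agt encodes angiotensinogen, the only precursor of the angiotensin peptides. Its probe (chr19:54738865-54738924 in rn4, the build of the array files, as for all probe positions here) is repeated on 10 spots. On the parotid array the spots ran from 13500 to 14400 signal units, with a median of 13900. On the submandibular-labelled array they ran from 20.7 to 46.4, with a median of 36.2, and 9 of 10 were well above background. On the sublingual array the 9 usable spots ran from 31.0 to 48.3, with a median of 43.2. No spot of the parotid array came near those of the other arrays, and the spots of the other arrays overlapped. The levels were 6.22 ± 0.03 on the parotid array (SD over 10 spots), -2.74 ± 0.34 on the submandibular-labelled array (10 spots) and -2.57 ± 0.20 on the sublingual array (9 spots). Agt was thus 498-fold higher in the parotid than in the submandibular-labelled sample and 443-fold higher than in the sublingual sample, log2 differences of 8.96 and 8.79. The SDs cover repeat spots of 1 hybridisation, not animals.

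Agt was the 12th highest of 11222 genes for parotid minus submandibular-labelled and the 13th of 11236 for parotid minus sublingual. Among 9751 other named genes that passed background on every array, the 5 whose pair of differences lay nearest to Agt were Pip, Prb3, Amy1, Lynx1 and Amy2-ps2, at Euclidean distances of 0.25, 0.66, 0.94, 1.16 and 1.52 on the log2 scale, over 3 arrays. Pip, Prb3 and Amy1 are secretory products and were also listed here as serous acinar markers, a list chosen with earlier results of these data known. Few genes lie so far out, so this overlap places Agt in no cell type. Amy2-ps2 is an amylase pseudogene whose signal may not be separable from that of other amylase genes. Hepatocyte and adipocyte markers were set beside Agt, since both cell types are known for making angiotensinogen. Of 8 hepatocyte markers 3 were well above background on each array, none was higher by 4-fold in the parotid, and Ttr, Apoa1 and Fga were not well above background on any array. The median log2 difference of the hepatocyte markers compared was -0.29 for parotid minus submandibular-labelled and -0.05 for parotid minus sublingual. Their summed linear levels (signal over the 75th percentile) were 2.48, 17.7 and 13.8 in the parotid, submandibular-labelled and sublingual samples, of which Serpina1 alone made up 1.99, 17.3 and 13.4. Of 5 compared with the submandibular-labelled array 2 were higher and 3 lower in the parotid, and of 4 compared with the sublingual array 2 and 2. Alb was higher on the parotid array, by log2 differences of at least 0.93 from submandibular-labelled and 1.09 from sublingual. Apob was higher there by 0.90 or more and by 0.26. Serpina1 was 8.71-fold lower in the parotid than in the submandibular-labelled sample and 6.72-fold lower than in the sublingual sample. Fgb was lower by at least 1.31-fold and 1.29-fold. Ahsg was lower by at least 1.22-fold than in the submandibular-labelled sample and was not compared with the sublingual one. The part of hepatocyte transcripts in the Agt difference was not tested. Of 10 adipocyte markers 6 could be compared and 5 were higher on the parotid array, with median log2 differences of 1.42 and 1.09 and summed levels of 13.0, 5.79 and 7.37. Of these, Adipoq exceeded its submandibular-labelled level by 4.06-fold in the parotid and Retn by at least 7.89-fold. Against the sublingual array they were 2.66-fold and 2.78-fold higher, and no adipocyte marker reached 4-fold. Lipe was lower in the parotid, by 1.88-fold and 1.24-fold. Plin1, Cidec, Lep and Pparg were not well above background on any array. The part of adipocytes in the Agt difference was not tested.

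Ace encodes angiotensin-converting enzyme, a membrane peptidase of endothelium and of some epithelia. Its 10 spots (chr10:95380752-95380811) ran from 95.7 to 129 signal units on the parotid array, with a median of 126, from 109 to 126 on the submandibular-labelled array, with a median of 118, and from 52.9 to 71.3 on the sublingual array, with a median of 61.1. Every sublingual spot was below every spot of the other arrays, whose spots overlapped each other. The levels were -0.61 ± 0.13, -0.95 ± 0.07 and -2.00 ± 0.14 in the same order of glands. Ace was 2.62-fold higher in the parotid than in the sublingual sample (log2 difference 1.39) and 2.07-fold higher in the submandibular-labelled than in the sublingual sample (1.05), with 0.34 between parotid and submandibular-labelled. For submandibular-labelled minus sublingual it was the 55th highest of 10782 genes, the member with the largest difference between those arrays. A second probe, described as angiotensin converting enzyme and lying 995 bases away (chr10:95381747-95381806), carried no member's gene name and stayed outside the count. Its 1 spot read 164, 107 and 67.3 signal units on the parotid, submandibular-labelled and sublingual arrays. Both probes put the glands in the same order, with log2 differences for the unnamed probe of 0.91, 1.68 and 0.77 for parotid minus submandibular-labelled, parotid minus sublingual and submandibular-labelled minus sublingual.

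The receptors for angiotensin II were dim or contradictory. Agtr1a encodes the main type 1 receptor of rodents, which carries most pressor actions of angiotensin II, and its 2 probes lie 1023 bases apart on chromosome 17. Probe 1 (chr17:40629499-40629558, 10 spots) ran from 56.6 to 67.8 signal units on the parotid array, with a median of 62.6. It ran from 25.0 to 46.2 on the submandibular-labelled array, with a median of 39.2, and from 29.5 to 57.7 on the sublingual array, with a median of 45.5. At levels of -1.57 ± 0.09, -2.61 ± 0.27 and -2.46 ± 0.28, it was 2.06-fold higher in the parotid than in the submandibular-labelled sample and 1.86-fold higher than in the sublingual sample. On normalized levels the parotid spots overlapped neither other array. Probe 2 (chr17:40628476-40628535, 1 spot) read 1120, 1950 and 1870 signal units, levels of 2.59, 3.10 and 2.94 on the parotid, submandibular-labelled and sublingual arrays. By probe 2 Agtr1a was 1.42-fold lower in the parotid than in the submandibular-labelled sample and 1.27-fold lower than in the sublingual sample. The probes thus gave opposite directions, so no direction is stated for Agtr1a. The brighter probe 2 stands for the gene in the counts, where neither probe reaches 4-fold.

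Agtr1b, the second type 1 receptor gene of rodents and nearly identical to Agtr1a in its protein, was not well above background on any array. Its 10-spot probe (chr2:105504546-105504605) had medians of 9.20, 8.02 and 11.6 signal units on the parotid, submandibular-labelled and sublingual arrays. Cross-hybridisation between Agtr1a and Agtr1b probes was not tested. Agtr2, the type 2 receptor that opposes many type 1 actions, was likewise not well above background, with medians of 4.45, 4.94 and 4.20 on 1 probe and 4.74, 5.25 and 11.5 on the other; both are placed on unassigned sequence of rn4. Mas1, a receptor for a shorter angiotensin peptide, read 7.13, 4.48 and 4.26 (chr1:42185391-42185450) and was not well above background. No order of the glands can be read from these 3 genes, and a level below the measured range is not a sign that the receptor is absent.

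Aplnr, the apelin receptor, rests on 1 probe with 1 spot (chr3:68368367-68368426). It read 50500 signal units on the parotid array with a scanner error estimate of 5050, against 44.8 with an error of 5.91 on the submandibular-labelled array and 36.0 with an error of 5.13 on the sublingual array. All 3 spots were well above background, and only the parotid spot was bright. The levels were 8.08, -2.35 and -2.76, so the signal was 1382-fold higher in the parotid than in the submandibular-labelled sample and 1840-fold higher than in the sublingual sample, log2 differences of 10.43 and 10.85. Aplnr was the 10th highest of 11222 and the 7th highest of 11236 genes in these comparisons. The difference of 0.41 between submandibular-labelled and sublingual has no repeat spot to set it against. No other probe named or described as this receptor was found, so the signal has no check by a second sequence.

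The 5 genes nearest to Aplnr by their pair of differences were Zfp831, Amy2-ps2, Amy1, Prb3 and Agt, at distances from 1.01 to 2.53, wider than the 0.25 between Agt and Pip. Endothelial markers were set beside it. Of 12, 11 passed background in the parotid and 8 on each other array. Of 11 compared, 10 were higher on the parotid array in both comparisons, and none reached 4-fold by its measured value or lower bound. Their median log2 differences, bounds included, were 0.70 for parotid minus submandibular-labelled and 1.04 for parotid minus sublingual. The highest, 1.14 and 1.30, were lower bounds for Tie1, whose differences may be larger. Their summed levels were 29.9, 16.6 and 19.6 on the parotid, submandibular-labelled and sublingual arrays. The Aplnr log2 differences were 10.43 and 10.85, from 1 spot per array. The Ace difference of 1.39 from the sublingual array exceeds the highest measured endothelial one, 1.05 for Cdh5. Neither gene can be ranked against the bounds. The part of endothelial cells in either result was not tested.

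Apln encodes the precursor of apelin and was lower on the parotid array by both of its probes, which lie 1665 bases apart on the X chromosome. Probe 2 (chrX:134389049-134389108), the brighter, read 116 signal units on the parotid array with a scanner error of 12.4, against 633 with an error of 63.5 on the submandibular-labelled array and 483 with an error of 48.6 on the sublingual one. Probe 1 (chrX:134387384-134387443) read 143, 369 and 352 on the same arrays. Both ordered the glands alike, and the sizes differed by probe. By probe 2, at levels of -0.68, 1.47 and 0.99, Apln was 4.45-fold lower in the parotid than in the submandibular-labelled sample and 3.17-fold lower than in the sublingual sample. By probe 1, at levels of -0.38, 0.69 and 0.53, it was 2.11-fold and 1.88-fold lower. The 4-fold call against the submandibular-labelled array rests on probe 2 and on the scaling: the log2 difference was -2.15 in the main processing, -1.96 with the 75th percentile taken over probes that passed background on every array, -1.67 with normexp background correction and -1.61 as the median of both probes. Apln was lower on the parotid array in every alternative run.

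By probe 2, Apln stood 272nd from the lowest of 11222 genes for parotid minus submandibular-labelled and 502nd of 11236 for parotid minus sublingual. The 5 genes nearest to probe 2 were Hspb6, Mylk, Cimap1b, Chl1 and Sufu, at distances of 0.04, 0.05, 0.11, 0.11 and 0.12. Probe 1, with smaller log2 differences of -1.07 and -0.91, was not ranked, so rank and neighbours depend on the probe. Of 7 myoepithelial markers listed, 5 had a probe and 4 (Krt5, Krt14, Tp63 and Cnn1) could be compared. Acta2 and Myh11 had no matched probe. All 4 were lower on the parotid array, with median log2 differences of -1.53 and -1.41. Summed levels of the 5 were 21.1, 62.6 and 51.9 on the parotid, submandibular-labelled and sublingual arrays. Cnn1 also belongs to the next list. Of 8 pericyte and smooth muscle markers 4 were higher and 4 lower on the parotid array in both comparisons, with medians of 0.03 and 0.26. Their part in the Apln difference was not tested.

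**Figure D2:**
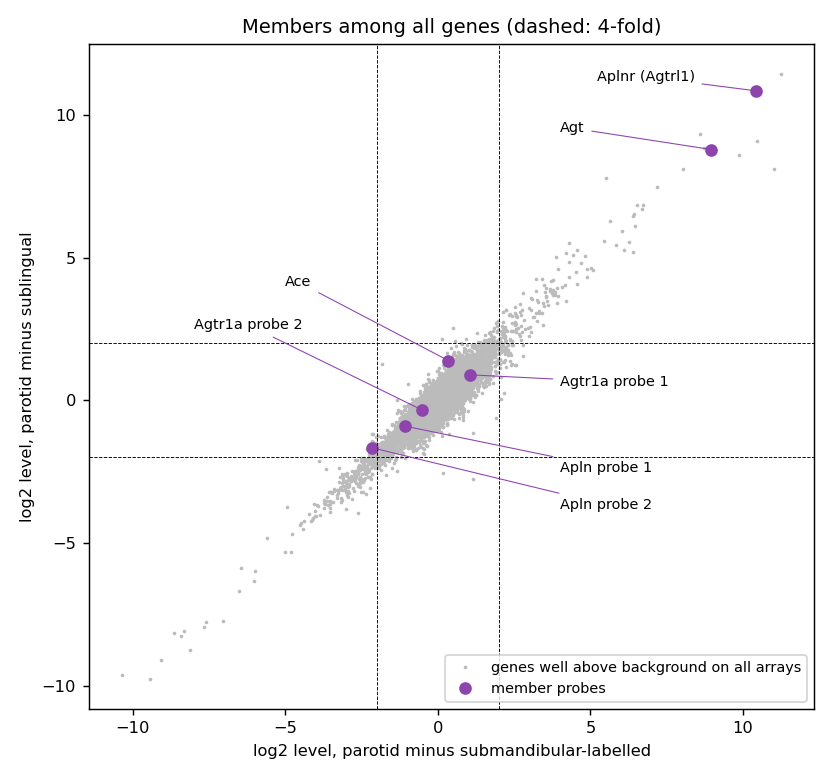
Log2 level differences of genes well above background on all 3 arrays (grey) and of the member probes (purple), parotid minus submandibular-labelled on the horizontal axis and parotid minus sublingual on the vertical; dashed lines mark 4-fold. Both axes share the parotid array, which by itself spreads points along the diagonal. Distance from the diagonal reflects the difference between the submandibular-labelled and sublingual arrays. Agt and Aplnr lie at the upper end of the diagonal, at 8.96 and 8.79 and at 10.43 and 10.85.

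The rest of the pathway was read from a list of 48 genes in 6 roles, of which 47 had a probe, 6 were not well above background on any array and 37 were on all arrays. Between parotid and submandibular-labelled, 4 of 41 genes compared were higher and 1 was lower by 4-fold or more in the parotid, beside 2.82% and 2.88% of all genes. Between parotid and sublingual the counts were 4 and 1 of 39, beside 2.85% and 3.03%, and between submandibular-labelled and sublingual 0 of 39, beside 0.0742% and 0.139%. These counts rest on the brightest probe of each gene: with the median of a gene's probes they were 2 higher and 1 lower of 38 against submandibular-labelled, and 1 higher and 1 lower of 37 against sublingual. The 4 higher in the parotid than in the sublingual sample include Anpep and Mtus1, whose probes disagree as described below. The median log2 differences of the list were -0.10, 0.44 and 0.26, beside -0.09, -0.06 and 0.04 for all genes. The 6 genes not well above background on any array were Ctsg, Pcsk1, Pcsk5, Gna13, Bdkrb1 and Cyp11b2.

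By the brightest probe of each gene, the role listed as converting and degrading enzymes held 4 of the 5 genes 4-fold apart in each parotid comparison. The role is that of the list, and action of each enzyme on angiotensins, Dpp4 included, was not measured. Mme, neprilysin, which cleaves angiotensin and many other small peptides, read 126, 2610 and 2870 signal units on the parotid, submandibular-labelled and sublingual arrays. It was 16.9-fold lower in the parotid than in the submandibular-labelled sample and 17.4-fold lower than in the sublingual sample, on 1 probe. Dpp4, a dipeptidyl peptidase, read 1720, 179 and 149, and was 11.8-fold and 15.1-fold higher on the parotid array; its other probe gave 9.19-fold and 9.53-fold. Enpep, aminopeptidase A, which shortens angiotensin II to angiotensin III, read 1560, 288 and 258, and was 6.64-fold and 7.93-fold higher on the parotid array. Another Enpep probe gave bounds of at least 9.11-fold and 10.2-fold, while the third read 238, 284 and 249, log2 differences of 0.04 and 0.33. Anpep, aminopeptidase N, had probes that pointed opposite ways. The probe of higher mean level was 2.47-fold and 4.16-fold higher on the parotid array, and the other 4.03-fold and 3.09-fold lower. The first was the brighter on the parotid array only (2400 against 308 signal units). It was the dimmer on the submandibular-labelled (1190 against 1520) and sublingual (757 against 1250) arrays. Cma1, mast cell chymase, was 5.39-fold higher in the parotid than in the submandibular-labelled sample and 2.41-fold higher than in the sublingual sample, with 3.41-fold and 2.28-fold by its other probe. Of 9 mast cell markers with a probe, Cma1 included, 5 of 6 compared were higher on the parotid array for the submandibular-labelled comparison and 5 of 5 for the sublingual one, with median log2 differences of 0.88 and 1.02 and summed levels of 11.8, 5.75 and 5.82; their part in the Cma1 difference was not tested.

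Among receptor partners Mtus1 had the largest difference of the list on 1 of its 3 probes only. Mtus1 encodes proteins known to bind the type 2 angiotensin receptor and microtubules. Its brightest probe (chr16:54611679-54611738) read 21400, 180 and 157 signal units on the parotid, submandibular-labelled and sublingual arrays, 146-fold and 179-fold higher on the parotid array. The others, at chr16:54663759-54663818 and chr16:54653631-54653690, read 393, 352 and 338, and 66.8, 60.5 and 54.1, with log2 differences between 0.44 and 0.70. The difference therefore belongs to that probe, and none is stated for the gene as a whole. Arrb1, a beta-arrestin that uncouples activated receptors, was 3.12-fold and 3.70-fold higher on the parotid array. Agtrap, which binds the type 1 receptor, and Mrgprd, a receptor related to Mas1, differed by log2 values of -0.60 and 0.19 from submandibular-labelled, and of -0.07 and 0.85 from sublingual.

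The remaining roles held no 4-fold difference. Of the proteases and their partners, Renbp was 2.90-fold and 2.51-fold lower on the parotid array, Furin, a proprotein convertase, 2.43-fold and 2.05-fold lower, and Atp6ap2, an accessory protein of the proton-pumping ATPase, 2.09-fold and 2.17-fold lower. The 3 Atp6ap2 probes were alike, with log2 differences between -1.22 and -0.91 over both comparisons. Of the signalling genes, Itpr3, an inositol trisphosphate receptor that releases stored calcium, was 2.41-fold and 2.89-fold higher on the parotid array, and its second probe gave 1.97-fold and 2.36-fold. Itpr1 differed by -0.66 and -0.95 on the log2 scale, and Plcb1, a phospholipase C, by 0.36 and 0.87. On the kinin side Bdkrb2, a bradykinin receptor measured on 10 spots per array, differed by 0.38 and 0.64, and Kng1, kininogen, was well above background on the submandibular-labelled array only. Of the mineralocorticoid genes, Nr3c2, the receptor for aldosterone, was 2.53-fold and 2.32-fold lower on the parotid array, while Hsd11b2, which shields it from glucocorticoid, differed by 0.31 and 0.58 and Sgk1, a kinase downstream of it, by -0.45 and -0.40 on the log2 scale. The other probes of Nr3c2 and Bdkrb2 were not well above background on any array.

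**Figure D3:**
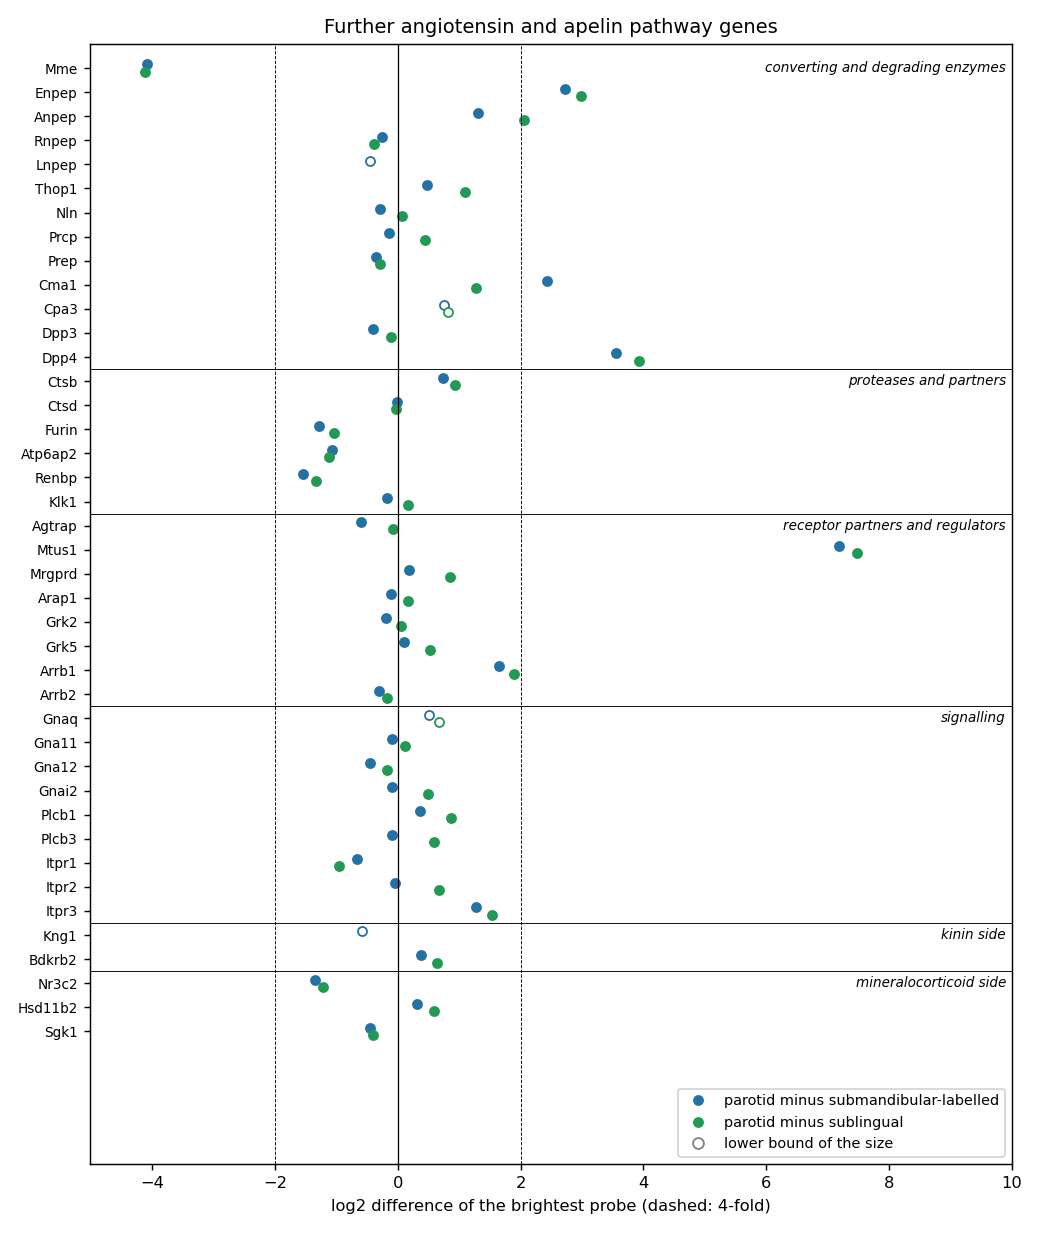
Log2 differences of the brightest probe of each further pathway gene, grouped by role, parotid minus submandibular-labelled in blue and parotid minus sublingual in green; open points are lower bounds of the size and dashed lines mark 4-fold. Mtus1 at 7.19 and 7.48 and Mme at -4.08 and -4.12 lie farthest out, and most genes lie inside the 4-fold lines.

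How far probes of 1 gene differed was counted over the whole table. Of 162 genes with several compared probes and at least 1 probe 4-fold apart between parotid and submandibular-labelled, all compared probes were 4-fold apart in 46 (28.4%); between parotid and sublingual it was 47 of 167 (28.1%). Among the members and further pathway genes it was 1 of 6 and 1 of 4, Dpp4 in both comparisons. Single-probe values such as those of Agt, Aplnr and Mme have no such check, although Agt has 10 spots of its 1 sequence.

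**Figure D4:**
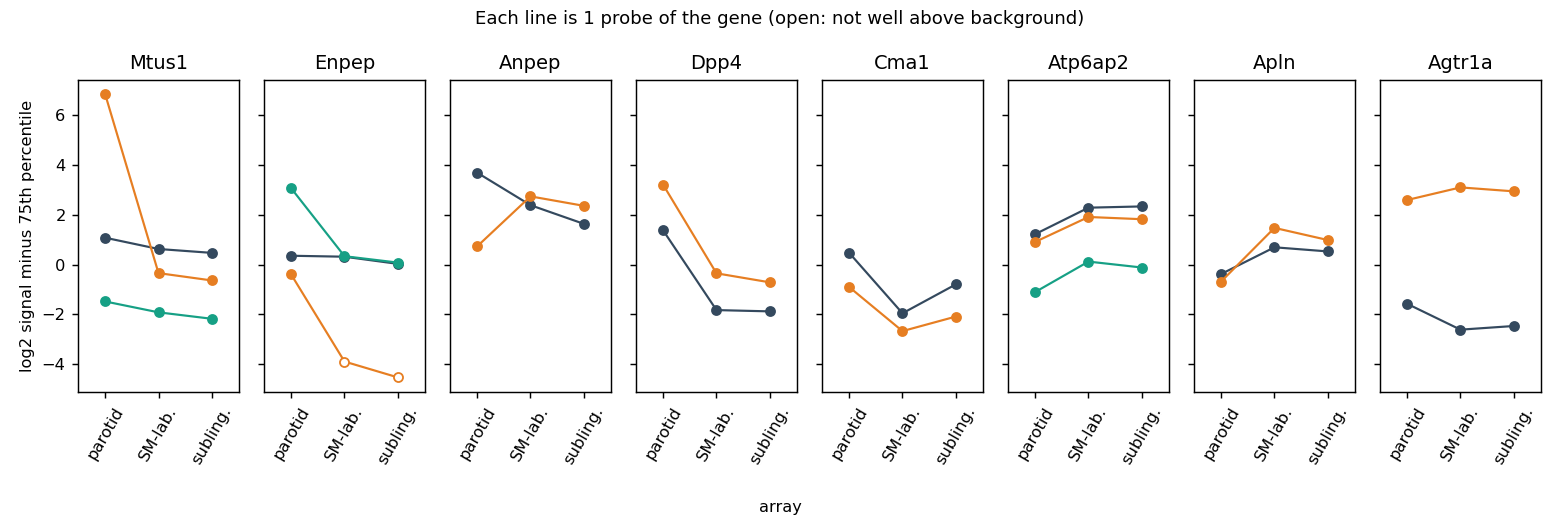
Levels (log2 signal minus the 75th percentile) of each probe of 8 genes with several probes on the parotid, submandibular-labelled and sublingual arrays, 1 line per probe, open points not well above background. The lines of Dpp4, Cma1 and Atp6ap2 run alike, those of Mtus1, Enpep and Apln differ in size, and those of Anpep and Agtr1a differ in direction.

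The member differences were also set against each change in processing. Agt ranged from 7.16 to 9.16 on the log2 scale for parotid minus submandibular-labelled and from 7.20 to 8.97 for parotid minus sublingual, and Aplnr from 9.19 to 10.63 and from 9.45 to 11.03. The lowest of each came with normexp background correction, which left Agt 143-fold higher in the parotid than in the submandibular-labelled sample. Ace kept a difference of 0.03 to 0.54 and of 0.84 to 1.58. Agtr1a changed sign with the choice of probe.

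**Figure D5:**
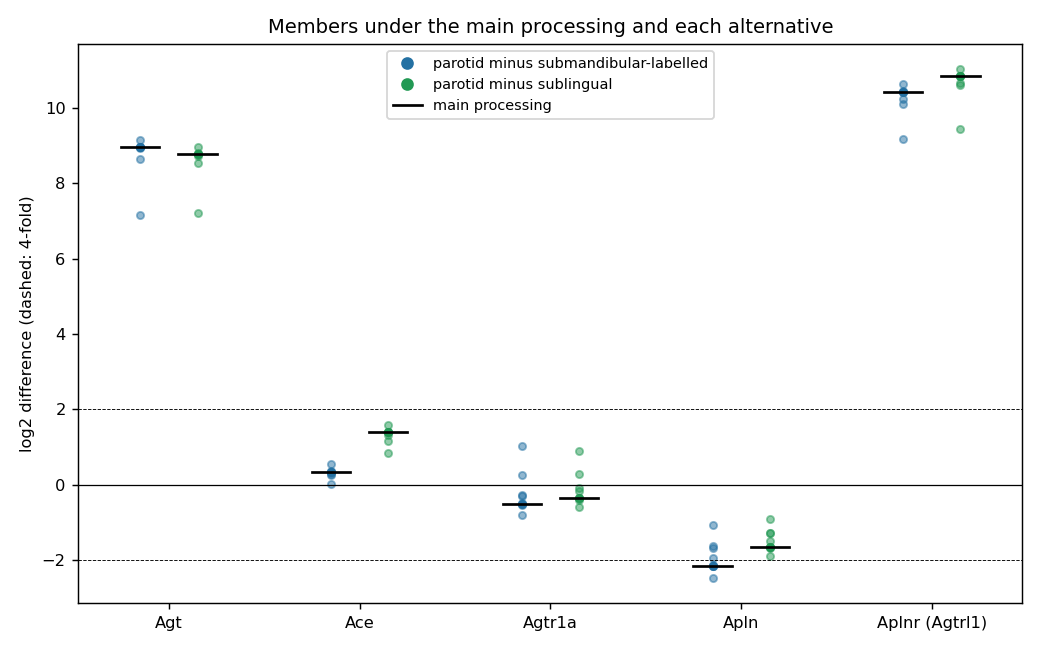
Log2 differences of the 5 members well above background, parotid minus submandibular-labelled in blue and parotid minus sublingual in green; points are the main processing and each alternative, black bars the main processing, dashed lines 4-fold. Agt and Aplnr stay above 7 in every setting, Apln stays below 0, and Agtr1a lies on both sides of 0.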

How the data were processed

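RNA of 3 rat salivary glands was measured on 1 array per gland, and samples were grouped by the gland in their labels. The deposited spot intensities were written, per the file headers, by Feature Extraction 10.1.1.1 of Agilent under protocol GE1-v5_10_Apr08 on design 014879, with positions in rn4. A table of ratio values per spot was also deposited by the authors. Over 43379 spots it matched the processed signal after division by 190, 236 and 250 (parotid, submandibular-labelled, sublingual), within 0.0142 on the log2 scale for spots above 1000, with medians of 0.152, 0.122 and 0.128. It was used as an alternative only.

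The values reported are log2 of the deposited processed signal minus the 75th percentile of each array over probes (signals of 186, 228 and 244). Controls were dropped, as were 68, 79 and 73 spots flagged as outliers, and the remaining spots of a probe were averaged on the log2 scale. A fold with 1 dim side is a lower bound, taken against the larger of the dim probe's level and the lowest level well above background on its array. Of 41012 probes, 21393 were matched to a gene of the RefSeq table of GRCr8, used for names (accessions settled 10857, symbols 5049, older symbols 3390, gene identifiers 1875 and descriptions 222); the others enter no gene count. A gene with several probes (3771 genes) is represented by its brightest, the probe of highest mean level over the arrays. Repeat spots had a median SD of 0.09, 0.08 and 0.08 over 170, 165 and 165 probes. Beside the scanner's error estimates, this is the only spread the design measures. Variation between animals, labellings and arrays was not measured, and no test was made.

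Genes at least 4-fold apart were counted per pair of arrays. The members, the pathway and marker lists, the threshold and the naming rule were chosen with earlier results of these data known. The rule names all members with every probe, each further pathway gene 4-fold apart, otherwise up to 3 per role by size, and for each member 4-fold apart its 5 nearest genes. Some genes of these lists are not reported here and enter no list count. Each count was repeated with normexp correction of the background (limma 3.58.1, R 4.3.3, offset 50), quantile normalization, other centrings, the deposited ratio, other filters, probe choice, and 2-fold and 10-fold thresholds. Python 3.11.15, numpy 2.4.6, pandas 2.3.3 and matplotlib 3.10.9 were used, and the counting step was tested on simulated data.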

Additional observations from a re-analysis of the deposited data

How the results depend on the processing

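No paired analysis was possible because each gland has 1 array. Of 99 counts recomputed under an alternative, 77 stayed within 1.5 times the count reported and 22 did not. In the order parotid with submandibular-labelled, parotid with sublingual and submandibular-labelled with sublingual, 640, 660 and 23 genes were at least 4-fold apart. The counts were 338, 358 and 11 with normexp background correction, 1090, 1160 and 99 with no filter and no bound, 2466, 2794 and 169 at 2-fold, and 211, 224 and 11 at 10-fold; with genes well above background on all arrays only, the last pair gave 9. Of the further pathway genes (5, 5 and 0), the median of a gene's probes gave 3 and 2, 2-fold gave 12, 13 and 2, and 10-fold gave 3 and 3. Of the members (3, 2 and 0), 2-fold gave 4 for parotid with sublingual and 1 for submandibular-labelled with sublingual.

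The split into higher and lower on the parotid array depended on the scaling. It was 317 higher and 323 lower against submandibular-labelled and 320 and 340 against sublingual. Centring on the median gave 219 and 445, and 244 and 438, normexp 135 and 203, and 136 and 222, and the 75th percentile over probes well above background on all arrays 402 and 262, and 405 and 271; no filter and no bound gave 640 and 450, and 698 and 462. The median difference of genes well above background on all arrays was -0.14 and -0.10, and it moved by -0.31 and -0.24 with median centring and by 0.20 and 0.18 with that 75th percentile. Of 15 member differences, 4 changed sign in some setting: Agt between submandibular-labelled and sublingual (-0.22 to 0.04) and Agtr1a in all 3 pairs (-0.82 to 1.04, -0.59 to 0.89 and -0.15 to 0.23). The Apln call of 4-fold lower in the parotid than in the submandibular-labelled sample was lost with normexp, with that 75th percentile, with the median of its probes, with its other probe and at 10-fold. Values near the lower end of the signal range (Agtr1a probe 1, and Agt and Aplnr outside the parotid) limit the precision of the folds.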

Other observations

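Among member probes with repeat spots and well above background, Agt, Agtr1a probe 1 and Ace each had their highest level on the parotid array. The spread over repeat spots was smallest there for Agt and Agtr1a probe 1, but not for Ace. The SD over repeat spots of the Agt probe was 0.03 at a level of 6.22 on the parotid array, and 0.34 and 0.20 at levels of -2.74 and -2.57 on the submandibular-labelled and sublingual arrays. Agtr1a probe 1 had SDs of 0.09, 0.27 and 0.28 at levels of -1.57, -2.61 and -2.46 in the same order. Ace had SDs of 0.13, 0.07 and 0.14 at levels of -0.61, -0.95 and -2.00.

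The promoter windows of the members with an entry differed in their motif matches. Agtr1a held 1 TATA box, 2 GC boxes and 2 E-boxes, Agtr1b held 2 CCAAT boxes and 1 E-box, Agtr2 held 1 CCAAT box and 2 E-boxes, and Mas1 held none of the 6 motifs searched. These are descriptions of letters and were set against no measurement.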
